A study of Mus musculus with 3 samples.

Results

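The mitochondrial solute carriers of the SLC25 family were described in the livers of mice given a Cre or a control virus. All genes whose platform annotation gave 1 symbol of the form Slc25a followed by a number were taken, except 2 that the rule set aside. This left 42 genes of the 18193 on the array, read by 90 probe sets, and the probe set with the highest mean over the 3 arrays stood for each gene. The rule itself uses names and mean level, not the difference between the viruses. Members and lists were nevertheless chosen with earlier results of these data known.

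Total RNA came from livers of 3-month-old mice of mixed strain, 1 week after 1 intraperitoneal injection of 400 microL of virus. The control virus was MUP-EGFP-AAV8, which carries a green fluorescent protein (n = 2 mice), and the Cre virus was MUP-iCre-AAV8, which carries the recombinase iCre (n = 1 mouse). Cre cuts out DNA between loxP sites, here in floxed Hnf4a, the gene of the nuclear receptor HNF4alpha that drives many hepatocyte genes. The labels do not explain the prefix MUP. The series text gives floxed HNF4alpha mice under either virus, whereas the sample labels list the controls as wild type and the Cre liver as HNF4alpha knockout, so virus and genotype cannot be told apart. Each liver gave 1 array, and each Cre value below is 1 mouse. Values are log2 expression, so that a step of 1 is a 2-fold change. Each difference is Cre minus the control mean, with the standard error (SE) that limma moderates across genes. A gene is said to rise or fall only where its limma adjusted p, over all 12735 genes fitted, was under 0.05.

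SLC25 carriers sit mostly in the inner mitochondrial membrane, which ions and metabolites do not cross unaided. Each carries a small set of solutes, usually by exchange: ADP for ATP, phosphate, citrate, malate, amino acids, acylcarnitines, cofactors or iron. In liver they link the matrix to cytosolic pathways, among them fatty acid synthesis from exported citrate, gluconeogenesis, the urea cycle and the malate-aspartate shuttle.

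Before the carriers, some facts of the arrays bear on every value. Hnf4a itself fell, from 11.92 and 11.96 in the controls to 11.38 in the Cre liver (-0.55 ± 0.10 SE, adjusted p = 0.0401), and all 4 of its probe sets were lower, with differences from -1.18 to -0.55. Tested over all probe sets by limma, 1 of the 4 passed (adjusted p = 0.0364, at -1.18), and the others, the brightest included, had an adjusted p from 0.0644 to 0.21. Where they lie relative to the floxed part was not analysed here. Array controls for RNA integrity were highest in the Cre liver, but above the nearer control by less than the controls differed from each other: the 3-prime minus 5-prime log2 signal of Gapdh was 0.46 and 0.82 in control livers against 1.04 after Cre virus, and that of beta-actin 1.71, 2.06 and 2.39. Of 7 Kupffer cell markers, 6 were above both controls in the Cre liver, and 1 (Marco) was called higher. The mean log2 level of the 7 was 6.38, 6.79 and 7.31 and their summed linear signal 906, 1381 and 1758. Marco read 4.735 and 4.667 in the controls against 6.584, and its other probe set went the other way, by -0.34. Of 9 hepatocyte markers, with a mean log2 level of 13.77, 13.79 and 12.95, Asgr1 (-5.02), Apoa2 and Tat were called lower. Alb and Ttr were below both controls without passing, and Apoa1, Cyp2e1, Cps1 and Fgb were above both without passing. The median difference of the 9 was -0.10. Of 4 cholangiocyte markers, Sox9 was called higher (2.35 ± 0.43 SE). It read 3.875 and 4.821 in the controls against 6.694, and another of its probe sets differed by only 0.43. Epcam did not pass (0.28 ± 0.17 SE), Krt19, too dim to be fitted, lay below both controls, and Krt7 was dim on every array. The defining adipocyte markers Ucp1, Adipoq and Cidea lay below 3.77, the value used as the filter on dim genes, on every array, as did 3 of 5 muscle markers (Acta1, Myh4 and Tnnt3), while Ckm (5.13, 5.05 and 4.97) and Mylpf (4.94, 4.23 and 4.58) were fitted and did not pass. The part of RNA integrity and of macrophage RNA in the differences below was not tested. In bulk liver, fewer cells of a type and less RNA per cell cannot be told apart.

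Of the 42 carriers, 35 passed the filter on dim genes and were fitted. Of these, 4 fell, namely Slc25a1, Slc25a10, Slc25a25 and Slc25a5, 31 did not pass, and 0 rose. The 4 are 11.4% of the fitted members, and 5.21% of all fitted genes fell and 6.71% rose. At an unadjusted p under 0.05 by limma, 7 members were lower and 7 higher, 40.0% of the members against 31.2% of all fitted genes. Counts at that level in the groups below stand against the same 31.2%. Without a test, 3 members lay at least 1 log2 unit below both controls and 0 at least 1 unit above both, where 3.72% and 3.67% of all fitted genes did. The Cre liver was below both controls in 11 members, above both in 14 and between them in 10, and among all fitted genes it was below both in 33.6% and above both in 49.7%. The median difference was 0.04 over the fitted members and 0.09 over all fitted genes.

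**Figure D1:**
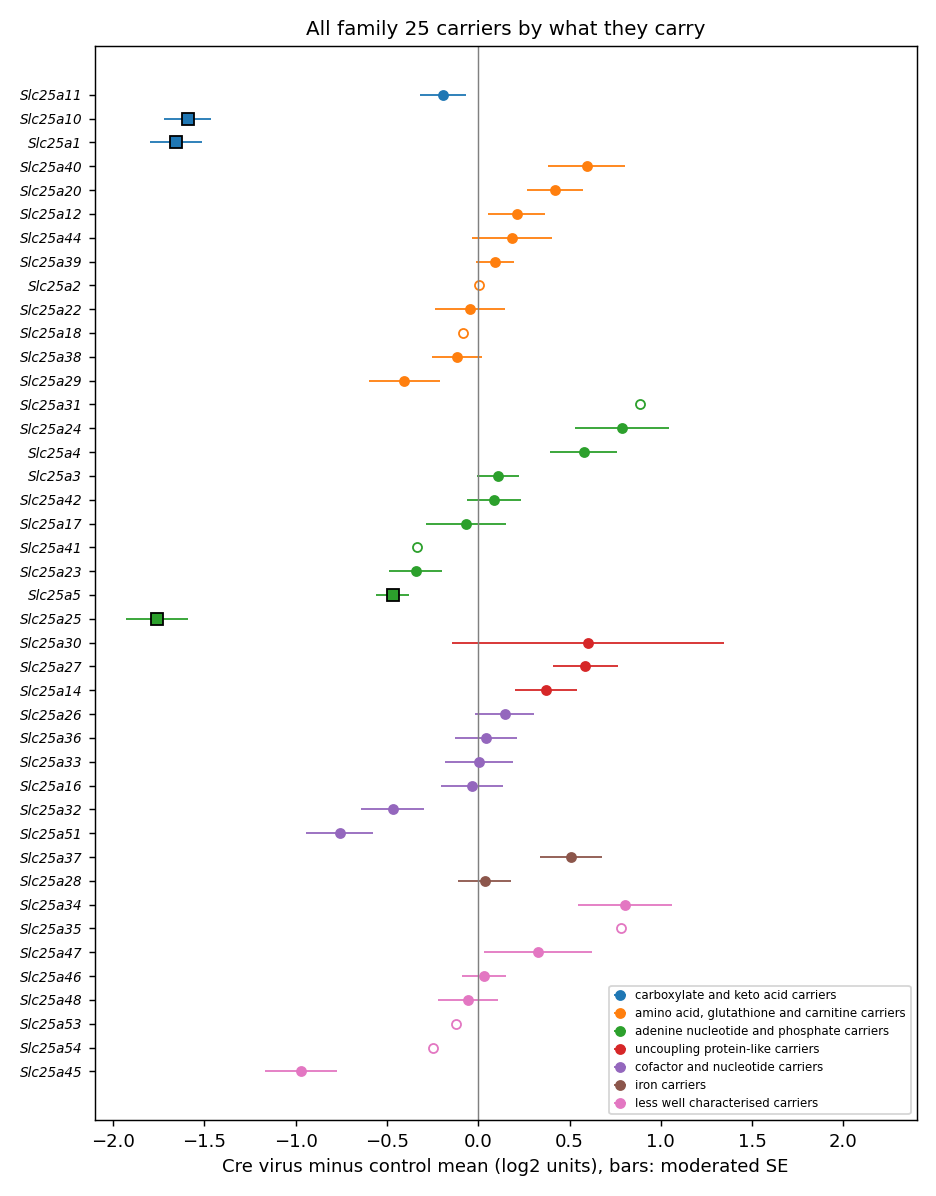
Difference between the Cre liver and the control mean in log2 units for all 42 carriers, grouped by solute, with moderated SE bars. Squares with black edges mark the 4 that fell, filled circles the 31 fitted members that did not pass, and open circles the 7 below the filter, which have no bar; Slc25a1, Slc25a10 and Slc25a25 stand apart on the left, between -1.76 and -1.59.

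The promoters of the 3 carriers with the largest falls are shown because the results turn on these genes, which were chosen for the size of their falls. RefSeq windows of 250 bases before and 50 after a start site (GRCm38.p6) were matched by symbol for 32 of the 42 members, 40 windows in all, since a gene can have several starts. Each run below holds the 250 bases before 1 start, 5′ to 3′ on the gene's strand, at chr16:17928220-17928469 (minus strand) for Slc25a1, chr11:120491587-120491836 (plus strand) for Slc25a10 and chr2:32451471-32451720 (minus strand), the most upstream of 3 listed starts, for Slc25a25.
Slc25a1: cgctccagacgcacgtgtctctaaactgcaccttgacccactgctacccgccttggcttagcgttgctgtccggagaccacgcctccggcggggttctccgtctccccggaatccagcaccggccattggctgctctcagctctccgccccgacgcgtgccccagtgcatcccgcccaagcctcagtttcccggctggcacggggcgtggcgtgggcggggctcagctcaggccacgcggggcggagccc
Slc25a10: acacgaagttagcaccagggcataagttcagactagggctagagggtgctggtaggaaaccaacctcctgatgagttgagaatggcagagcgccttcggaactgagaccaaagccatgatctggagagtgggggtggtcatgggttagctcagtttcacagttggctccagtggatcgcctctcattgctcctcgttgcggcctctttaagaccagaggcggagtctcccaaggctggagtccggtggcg
Slc25a25: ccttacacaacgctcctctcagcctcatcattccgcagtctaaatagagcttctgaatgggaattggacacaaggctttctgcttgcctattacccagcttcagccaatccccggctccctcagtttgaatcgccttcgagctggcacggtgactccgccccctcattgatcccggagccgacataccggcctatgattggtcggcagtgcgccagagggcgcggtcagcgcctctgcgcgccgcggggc

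All windows were searched on both strands for 4 short motifs. The letters CAAAGTCCA, a form bound by HNF4 proteins, were in 0 of the 40 member windows and in 0.475% of the 32851 windows of all genes. The letters CAAAGGTCA, from the direct repeat read by several nuclear receptors, were in 0 of 40 and in 0.478% of all. A sterol element form, TCACNCCAC, was in 1 of 40 (Slc25a18) and in 1.24% of all. The cyclic AMP element TGACGTCA was in 2 of 40, those of Slc25a25 and Slc25a36, and in 1.79% of all. In Slc25a25 it lay 150 bases before the most downstream of its listed starts, at chr2:32424199-32424226 (minus strand), and is in capitals here.
Slc25a25, downstream start: ctgcaagcagTGACGTCAgtcctgatct
A match of letters is a description only, and no match says only that these letters are not in these windows.

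Of the 3 carboxylate carriers, 2 fell, and all 3 were lower than both controls. Slc25a1 encodes the citrate carrier, which sends citrate to the cytosol, where it is split to acetyl-CoA for fatty acid and sterol synthesis. Its level was 9.16 and 9.33 in control livers against 7.59 after Cre virus, 3.15-fold lower (-1.65 ± 0.14 SE, adjusted p = 0.00948). Slc25a10 encodes the dicarboxylate carrier, which exchanges malate or succinate for phosphate and sulfur anions. It read 8.58 and 8.59 in control livers against 7.0 after Cre virus, 3.01-fold lower (-1.59 ± 0.13 SE, adjusted p = 0.00831). Neither overlapped its controls, which differed from each other by 0.17 and 0.01. Slc25a10 had another probe set, at 7.29, 7.36 and 6.07 (-1.26 ± 0.15 SE; adjusted p = 0.0362 over 31526 probe sets with limma), while Slc25a1 was read by 1 probe set only.

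The remaining carboxylate carrier did not pass. Slc25a11 encodes the oxoglutarate carrier, which swaps malate for 2-oxoglutarate in the malate-aspartate shuttle. It read 8.61 and 8.62 in control livers against 8.43 after Cre virus (-0.19 ± 0.12 SE, adjusted p = 0.355). The Cre value was below both controls, and the 95% interval of the difference, from -0.53 to 0.15, held neither of the falls of Slc25a1 and Slc25a10.

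Carriers of adenine nucleotides and phosphate numbered 10, of which 8 were fitted, 2 fell and 0 rose by limma (2 higher at an unadjusted p under 0.05). Slc25a25 encodes a calcium-activated carrier that exchanges ATP-magnesium for phosphate and so sets the nucleotide content of the matrix. It read 8.46 and 8.21 in control livers against 6.57 after Cre virus, 3.38-fold lower (-1.76 ± 0.17 SE, adjusted p = 0.0123), the largest difference of either sign among the 35 fitted members. Its other probe sets gave 4.93, 4.75 and 3.30 (-1.54), and 4.64, 4.56 and 4.50 (-0.10), so the mean of all 3 was smaller, at -1.13, and still passed (adjusted p = 0.0173). Its relatives of the same transport type did not pass. Slc25a23 read 8.82 and 8.63 in control livers against 8.38 after Cre virus (-0.34 ± 0.15 SE, adjusted p = 0.205). Slc25a24 was at 4.28 and 3.83 against 4.85 (0.79 ± 0.26 SE, adjusted p = 0.132), above both controls at a low level. Slc25a41 lay below the filter, at 3.83, 3.66 and 3.41.

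The ADP/ATP carriers, which exchange cytosolic ADP for matrix ATP, differed in sign. Slc25a5 read 12.64 and 12.65 in control livers against 12.18 after Cre virus, 1.38-fold lower (-0.47 ± 0.09 SE, adjusted p = 0.0468). All 8 of its probe sets were lower, with differences from -0.93 to -0.38. The array marks 6 of them as open to binding by other transcripts, which leaves the value uncertain. Tested over all probe sets by limma, the adjusted p of the 8 ran from 0.071 to 0.244, and the adjusted p of the gene ran from 0.012 to 0.125 over 8 other settings, 5 of them past the threshold. On the probe set that bears no such mark nor that of several transcripts, the difference was -0.93 and missed the threshold (adjusted p = 0.0558).

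Slc25a4, the other ADP/ATP isoform, read 6.12 and 6.37 in control livers against 6.82 after Cre virus (0.58 ± 0.18 SE, adjusted p = 0.124). The Cre liver was above both controls on each of its 4 probe sets, by 0.03 on the dimmest and by 1.19 on the one with the widest difference (adjusted p = 0.0593 over probe sets by limma). The isoforms are close in sequence, so signal may be shared between them. Slc25a31, the isoform known from testis, was below the filter and read 3.56 and 3.23 in control livers against 4.28 after Cre virus.

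Slc25a3 encodes the phosphate carrier that feeds ATP synthase. It read 11.97 and 11.80 in control livers against 11.99 after Cre virus (0.11 ± 0.12 SE, adjusted p = 0.571), with a 95% interval from -0.21 to 0.42. Slc25a42, which imports coenzyme A, gave 7.19, 7.32 and 7.34 (0.08 ± 0.15 SE, adjusted p = 0.732; -0.03 after quantile normalization). Slc25a17, a peroxisomal member that handles cofactors, gave 8.25, 7.83 and 7.98, the Cre liver lying between its controls.

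**Figure D2:**
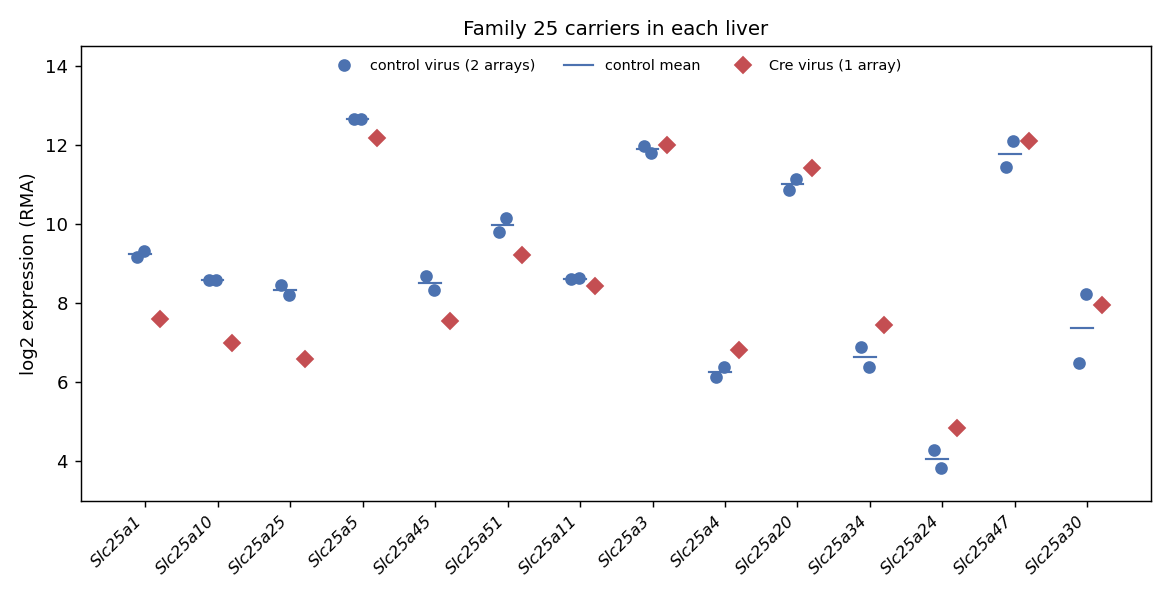
Log2 expression of 14 carriers in each liver, with control livers as blue circles, their mean as a line and the Cre liver as a red diamond. Against the nearer control, the Cre diamond of Slc25a1, Slc25a10 and Slc25a25 lies at -1.57, -1.59 and -1.63, whereas in Slc25a30 and Slc25a47 it lies between controls that differ by 1.73 and 0.67.

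Amino acid, glutathione and carnitine carriers numbered 10, and of 8 fitted, 0 passed by limma, with 2 higher at an unadjusted p under 0.05. Slc25a20, the carnitine-acylcarnitine carrier that brings fatty acids in for oxidation, read 10.87 and 11.14 in control livers against 11.42 after Cre virus (0.42 ± 0.15 SE, adjusted p = 0.157). The Cre value was above both controls on both of its probe sets. Slc25a12, an aspartate-glutamate carrier of the malate-aspartate shuttle, was at 7.07 and 6.91 against 7.2 (0.21 ± 0.16 SE, adjusted p = 0.419; -0.02 as the mean of its probe sets). Slc25a22, a glutamate carrier, lay between its controls, at 8.87, 8.52 and 8.65 (-0.05 ± 0.19 SE).

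Neither glutathione carrier passed. Slc25a39 read 12.80 and 12.95 in control livers against 12.97 after Cre virus (0.09 ± 0.10 SE, adjusted p = 0.591), and Slc25a40 read 5.46 and 5.80 against 6.22 (0.59 ± 0.21 SE, adjusted p = 0.154). Slc25a38, which brings glycine in for heme synthesis, was at 7.2, 7.19 and 7.08 (-0.12 ± 0.14 SE). Its neighbour in that pathway, the erythroid-type synthase gene Alas2, fell from 8.61 and 8.92 to 5.49 (-3.27 ± 0.19 SE, adjusted p = 0.00339). The other synthase gene of that step, Alas1, was brighter and lay between its controls, at 10.82, 10.28 and 10.58 (0.03 ± 0.25 SE, limma adjusted p = 0.948). Of the other erythroid markers, Tfrc did not pass and Hba-a1, Epb42 and Slc4a1 were dim on every array. Slc25a44, a carrier of branched-chain amino acids, lay between its controls (6.70, 7.11 and 7.09).

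Slc25a29, a carrier of basic amino acids, depended on the probe set. The brightest read 6.02 and 6.31 in control livers against 5.76 after Cre virus (-0.40 ± 0.20 SE, adjusted p = 0.247), but the other 4 were higher in the Cre liver, by 0.39 to 0.66. Over all probe sets, the adjusted p of the 5 ran from 0.125 to 0.476 by limma. Slc25a2 and Slc25a18, an ornithine and a glutamate carrier, were below the filter, at no more than 2.66 and 3.28 on any array.

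Cofactor and nucleotide carriers numbered 6, all fitted, and 0 passed by limma, with 2 lower at an unadjusted p under 0.05. Slc25a51, the carrier of NAD+, read 9.80 and 10.14 in control livers against 9.21 after Cre virus, 1.69-fold lower (-0.76 ± 0.18 SE, adjusted p = 0.075). All 3 of its probe sets were lower, between -0.76 and -0.15, and it passed in 1 of 8 other settings, quantile normalization (adjusted p = 0.0186). Slc25a32, which carries folate, was at 5.61 and 5.76 against 5.21 (-0.47 ± 0.17 SE, adjusted p = 0.158). The other 4, Slc25a16, Slc25a26, Slc25a33 and Slc25a36, which serve coenzyme A, S-adenosylmethionine and pyrimidine nucleotides, were within -0.03 to 0.14 of the control mean.

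Both mitoferrins, the iron importers, missed the threshold, with 1 at an unadjusted p under 0.05 by limma. Slc25a37 read 6.39 and 6.19 in control livers against 6.80 after Cre virus (0.51 ± 0.17 SE, adjusted p = 0.135), and Slc25a28 read 7.35 and 7.46 against 7.44 (0.04 ± 0.14 SE). Of the 5 iron-sulfur and heme partners on the array, which include ferrochelatase (Fech) and the transferrin receptor (Tfrc), 0 passed by limma, 0 had an unadjusted p under 0.05, and the differences ran from 0.03 to 0.46.

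Members related to the uncoupling proteins, Slc25a14, Slc25a27 and Slc25a30, had positive differences that did not pass by limma, with Slc25a27 at an unadjusted p under 0.05. Slc25a27 read 4.01 and 3.93 in control livers against 4.56 after Cre virus (0.59 ± 0.18 SE, adjusted p = 0.114), a low level. Slc25a14 gave 5.80, 5.63 and 6.09 (0.37 ± 0.17 SE, adjusted p = 0.23), the Cre liver above both controls. Slc25a30 was at 6.49 in the first control, 8.22 in the second and 7.96 in the Cre liver (0.60 ± 0.75 SE, adjusted p = 0.625). The controls differed by 1.73, the widest gap among the fitted members, and another of its probe sets had the same pattern (6.05, 7.87 and 7.69). Its difference was thus 1.47 against the first control and -0.27 against the second.

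Among the 8 less well characterised members, 5 were fitted and 0 passed by limma, with 2 at an unadjusted p under 0.05. Slc25a45 came nearest and read 8.69 and 8.33 in control livers against 7.54 after Cre virus, 1.96-fold lower (-0.97 ± 0.20 SE, adjusted p = 0.0551). It passed in 4 of 8 other settings, with an adjusted p from 0.0156 to 0.0902. Slc25a34 was at 6.89 and 6.38 against 7.44 (0.80 ± 0.26 SE, adjusted p = 0.127), the highest difference of a fitted member. Slc25a47, a member known for its expression in liver, read 11.43 and 12.09 in control livers against 12.09 after Cre virus (0.33 ± 0.30 SE, adjusted p = 0.505), so the Cre value lay at that of the second control. Slc25a46, an outer membrane protein of mitochondrial dynamics, gave 8.95, 8.95 and 8.98, and Slc25a48 gave 5.58, 5.46 and 5.46.

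The 7 members below the filter were Slc25a2, Slc25a18, Slc25a31, Slc25a35, Slc25a41, Slc25a53 and Slc25a54. Near the array background RMA compresses differences, so their sizes are uncertain. Slc25a35 read 3.38 and 3.28 in control livers against 4.11 after Cre virus. Fitted with no filter, their adjusted p (limma) ran from 0.098 for Slc25a35 and 0.122 for Slc25a31 up to 0.998 for Slc25a2. Just below the filter value of 3.77 was Slc25a53, with a mean over the 3 arrays of 3.75, and the dimmest fitted member was Slc25a27, with 4.17.

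In 13 of the 35 fitted members the controls differed from each other by more than the Cre liver differed from their mean. The same count over all fitted genes was not made, so it cannot be called particular to the carriers. The median gap between the controls was 0.18 in the members and 0.15 in all fitted genes, and the median size of the difference was 0.34 and 0.30. Of the 42 members, 22 had several probe sets, and in 11 of these they differed in sign. Members that are adjacent protein-coding genes in the RefSeq order did not share a size of difference in every case: Slc25a41 (-0.34, dim) and Slc25a23 (-0.34) were alike, whereas Slc25a29 (-0.40) lay beside Slc25a47 (0.33), and Slc25a54 (-0.25, dim) beside Slc25a24 (0.79).

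**Figure D3:**
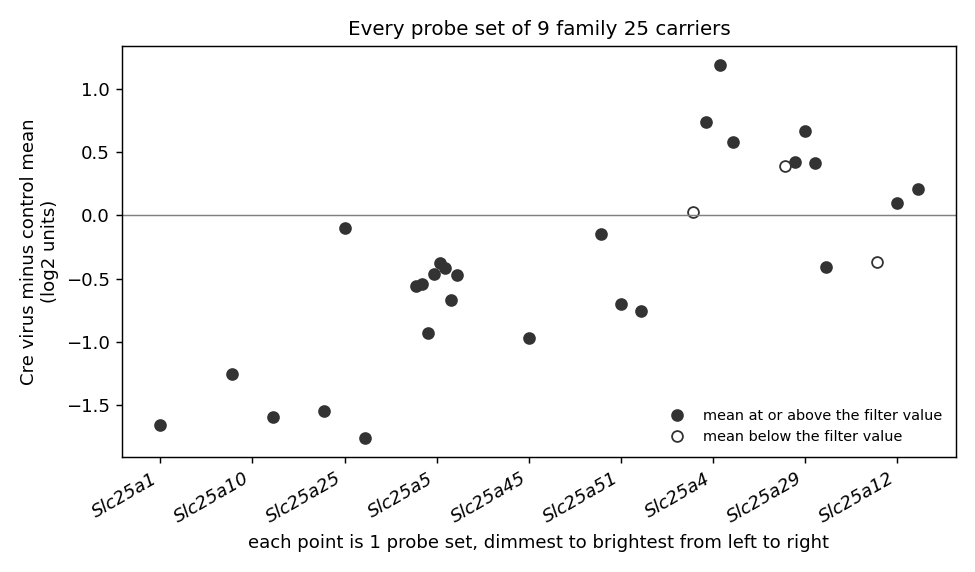
Cre minus control mean in log2 units for every probe set of 9 carriers, ordered from the dimmest to the brightest within each gene, with open circles for probe sets whose mean lay below 3.77. All probe sets of Slc25a10, Slc25a25, Slc25a5 and Slc25a51 are below 0, whereas those of Slc25a29 and Slc25a12 lie on either side.

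Genes that work beside the carriers were taken from 6 lists of 56 genes, of which 48 were on the array with 1 symbol and 45 were fitted. Of these, 4 fell and 4 rose (8.89% each, against 5.21% and 6.71% of all fitted genes). Their median difference was 0.18, and that of all fitted genes 0.09. Of the 8, 5 were enzymes on either side of the citrate, malate and aspartate carriers, a list of 11 fitted genes.

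Got1 and Got2, the cytosolic and mitochondrial aspartate aminotransferases of the malate-aspartate shuttle, fell. Got1 read 11.51 and 11.25 in control livers against 9.65 after Cre virus, 3.32-fold lower (-1.73 ± 0.15 SE, adjusted p = 0.0097). Got2 was at 11.87 and 11.80 against 10.67, 2.24-fold lower (-1.17 ± 0.10 SE, adjusted p = 0.0097), and both carriers of that shuttle given above, Slc25a11 and Slc25a12, did not pass. The malate dehydrogenases Mdh1 (-0.26 ± 0.10 SE) and Mdh2 (0.28 ± 0.10 SE) did not pass either. The glycerol phosphate shuttle went both ways. Gpd1, its cytosolic enzyme, fell from 9.2 and 9.34 to 8.10 (-1.17 ± 0.13 SE, adjusted p = 0.017). Its 4 probe sets ran from -1.17 to -0.003, and their mean was smaller, at -0.72 (adjusted p = 0.0418). Gpd2, the inner membrane enzyme, rose from 8.85 and 9.02 to 10.05 (1.11 ± 0.14 SE, adjusted p = 0.0191).

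Around citrate, Acly, which splits exported citrate, read 9.54 and 10.04 in control livers against 9.06 after Cre virus (-0.74 ± 0.24 SE, adjusted p = 0.13), with probe sets of both signs. Cs, the synthase that makes citrate in the matrix, was at 9.44 and 9.84 against 10.52 (0.88 ± 0.20 SE, adjusted p = 0.0712). Neither passed, while Slc25a1, which links them, fell. Glud1, glutamate dehydrogenase, rose from 11.94 and 12.08 to 12.85 (0.84 ± 0.11 SE, adjusted p = 0.0213), and missed the threshold without the intensity trend (adjusted p = 0.0552).

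**Figure D4:**
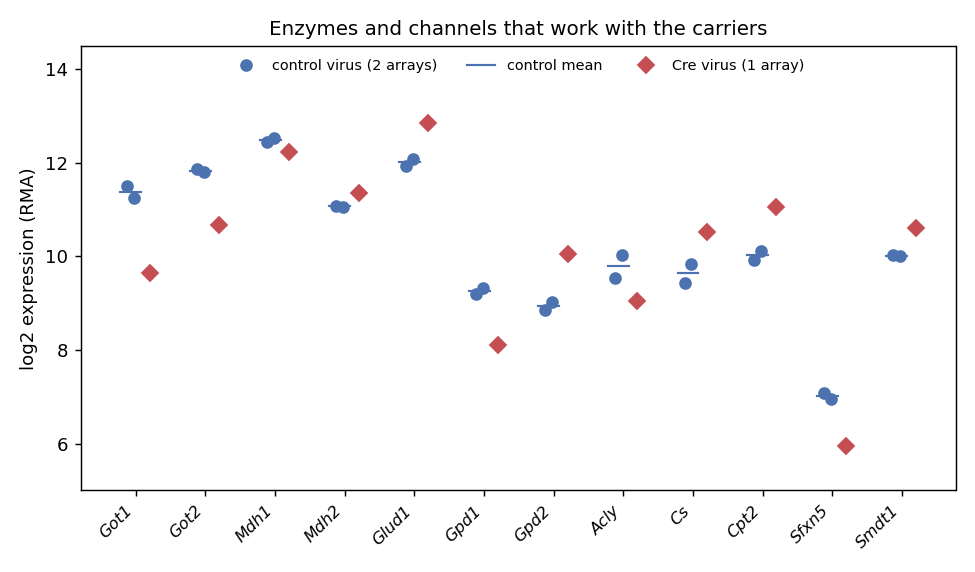
Log2 expression of 12 partner genes in each liver, drawn as for the carriers. Got1, Got2, Gpd1 and Sfxn5 are lower in the Cre liver, by differences of -1.73, -1.17, -1.17 and -1.08, while Gpd2, Cpt2, Glud1 and Smdt1 are higher.

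Of 4 fitted genes of the carnitine shuttle, Cpt2, which rebuilds acyl-CoA in the matrix after Slc25a20 has moved the acylcarnitine, rose from 9.93 and 10.12 to 11.06 (1.03 ± 0.13 SE, adjusted p = 0.0223; 0.0589 as the mean of its probe sets). The plasma membrane carnitine carrier Slc22a5 was at 7.73 and 8.35 against 9.38 without passing (1.34 ± 0.29 SE, adjusted p = 0.0629), and Cpt1a was at -0.29 ± 0.21 SE.

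Of 12 fitted carriers and channels of other families, Sfxn5, a sideroflexin, fell from 7.08 and 6.96 to 5.94 (-1.08 ± 0.15 SE, adjusted p = 0.0275). As the mean of its probe sets it differed by -0.57 and missed the threshold (adjusted p = 0.0673). Smdt1, a subunit of the calcium uniporter, rose from 10.03 and 10 to 10.62 (0.60 ± 0.11 SE, adjusted p = 0.0434; up to 0.0858 in other settings). The porins Vdac1, Vdac2 and Vdac3 and the pyruvate carrier subunit Mpc1 did not pass.

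Of the 10 genes of carrier import and insertion, 0 passed by limma and 4 had an unadjusted p under 0.05, all higher, with differences from -0.41 to 0.62. Among all fitted genes, 31.2% had an unadjusted p under 0.05 in either direction. This group holds the chaperones and translocase that place SLC25 proteins in the inner membrane, such as Timm22, the core of that translocase (0.43 ± 0.15 SE), and Timm9 (-0.41 ± 0.15 SE). Both had 2 probe sets of opposite sign, at -0.26 and 0.43 in Timm22 and at -0.41 and 0.19 in Timm9. Timm8b came nearest and read 9.02 and 9.11 in control livers against 9.69 after Cre virus (0.62 ± 0.12 SE, adjusted p = 0.0508). Of the family members that bear other names, Mtch2, an outer membrane protein, was at 9.89 and 9.76 against 10.45 (0.62 ± 0.12 SE, adjusted p = 0.0505), passing in 4 of 8 other settings. On another of its 7 probe sets it was at 8.56, 8.58 and 9.79 (1.21 ± 0.12 SE; adjusted p = 0.0263 over probe sets by limma). Mtch1 (-0.09) and Ucp3 (0.21) did not pass, and Ucp1, the uncoupling protein of brown fat, was dim on every array.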

How the data were processed

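Values are log2 expression per probe set, deposited by the authors, whose processing notes name Partek 6.5 and RMA. That method subtracts background, equalises the arrays' distributions and summarises probes, so a shift common to all genes is hidden. No source used here states the log base, and the values span a range that fits log2. The number of arrays limits precision.

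Probe sets with 1 annotated gene (34945 of 45101) were used, with symbols updated through a GRCm38.p6 gene table; 64 array controls were left out. The brightest probe set stood for each of 18193 genes, and genes whose mean reached the 30th percentile, 3.77, entered limma 3.58.1 in R 4.3.3 (lmFit, eBayes with trend; 1 residual and 3.18 prior degrees of freedom; Benjamini-Hochberg over 12735 genes, two-sided). The p-values rest on the spread between 2 control mice and the pooled prior, with the single Cre mouse taken to vary as they do. The fit was tested on simulated data in which the Cre array varied as the controls did, so that test cannot probe this assumption. Figures were drawn with matplotlib 3.10.9.

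Members and lists were chosen with earlier results of these data known. The rule for values on every array took members past the threshold, those 1 log2 unit outside both controls, and up to 15 others with the largest differences or best known liver roles; of each partner list, called genes and up to 4 others. Further members were given in full after their values were seen, so that each solute group is covered. The alternatives were other moderation, filters, scaling, probe set rules, thresholds and each control left out.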

Additional observations from a re-analysis of the deposited data

How the results depend on the processing

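Slc25a1, Slc25a10 and Slc25a25 passed in all 8 other settings tried for single genes, with adjusted p from 0.000497 to 0.0191, 0.000689 to 0.0162 and 0.00125 to 0.0244, and were at least 1 log2 unit below either control alone. Slc25a5 passed in 5 of 8. The count of members that fell was between 3 and 6 over 9 refits, where 2.8% to 7.91% of all fitted genes fell. That count was 6 at an adjusted p under 0.1 and 2 under 0.01. Members that rose numbered 1 with the mean of probe sets, where Slc25a35 (below the filter otherwise) entered. With 0.5 log2 units, 5 members were below and 3 above both controls. Leaving out each control in turn gave 1 to 2 members at least 1 log2 unit higher. Partner genes that fell numbered 6 after quantile normalization, 3 with the mean of probe sets, 5 at an adjusted p under 0.1 and 2 under 0.01, against 4. Those that rose numbered 2 without trend, 7 with robust moderation, 8 after median centring and 9 after quantile normalization, against 4. They numbered 7 with the mean of probe sets, 11 under 0.1 and 0 under 0.01. Among all fitted genes, 5.16% rose without trend, 8.24% with robust moderation, 9.5% after median centring and 9.36% after quantile normalization, against 6.71%. With the mean of probe sets 6.26% rose, and the shares under 0.1 and 0.01 are not given here. The cause was not tested. Only some members were followed singly through the settings. Among those, signs turned for Slc25a12 (-0.021 as the mean of probe sets, -0.370 on another probe set), Slc25a27 (-0.036 on another probe set) and Slc25a42 (-0.028 after quantile normalization, -0.013 as the mean, -0.110 on another probe set), none of them called. Other members with probe sets of both signs, such as Slc25a29, are in the count given above. In all 10 fitted members whose Cre value lay between the controls, the sign depended on the control kept. Without the first control it turned for Slc25a17 (0.143), Slc25a22 (0.127), Slc25a28 (-0.022), Slc25a30 (-0.265) and Slc25a33 (-0.156). It also turned for Slc25a36 (-0.040), Slc25a44 (-0.016), Slc25a47 (-0.008) and Slc25a48 (0.002). Without the second control it turned for Slc25a16 (0.113). Median centring put the median over all fitted genes at 0.10, and quantile normalization at 0.02. No test was run with a control left out, since that leaves no residual degree of freedom. No paired analysis was made, because the labels give no pairs of mice and the Cre group is 1 mouse. Dim signals and 3 arrays limit small differences.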
